A study of Homo sapiens with 9 samples.

Results

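The tumour necrosis factor (TNF) superfamily consists of ligands, most of them made as trimeric membrane proteins that proteases can shed, and of the cell-surface receptors that bind them. Its genes were taken here as every row of the expression table whose symbol starts with TNFSF or TNFRSF, together with TNF, LTA, LTB, LTBR, CD40, CD70, FAS, FASLG and NGFR. This gave 42 of 19389 genes, 17 of them ligands and 25 receptors. The genes were measured in SW1353, a human chondrosarcoma line often used in place of chondrocytes, by RNA-seq of 9 libraries. In 3 of them cells had no treatment, in 3 they had 20 h of interleukin-1β (IL-1β, 20 ng/mL), a cytokine that activates NF-κB, and in 3 a pretreatment of 2 h with PBSL, made from Protaetia brevitarsis seulensis larvae, preceded that IL-1β. The PBSL concentration of these libraries is not given in the sources used here, and there was no group with PBSL alone. All groups are 1 cell line, and the labels do not say whether libraries of a group came from separate cultures, so p-values measure only the spread between these libraries.

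Some TNF receptors carry a death domain in their cytoplasmic part, through which adaptors such as TRADD and FADD can recruit caspase 8 or the kinase RIPK1. Others bind TRAF proteins directly and signal to NF-κB and to stress kinases, and a few are decoys that bind ligand without passing on a signal. In joint tissue TNF is known, with IL-1β, as a driver of cartilage breakdown, and the receptor TNFRSF11B (osteoprotegerin) is known for blocking the bone-resorption ligand TNFSF11 (RANKL).

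The deposited values behave as levels per transcript length: over 1323 barely detected genes, the smallest non-zero value fell with exon length (Spearman rho -0.812, a description across genes). They are not counts. Levels can thus be set beside each other between genes, but the number of reads behind a value is unknown. Over genes with low values in both libraries, the most common ratio to the first untreated library was 0.886 to 1.09. The values were already normalized, so this ratio does not show that the libraries had equal numbers of reads. Along the second principal component (16.6% of the variance), PBSL 1 lay at 0.58, between the IL-1β libraries (-12.4 to -11.5) and the other PBSL libraries (16.8 and 18.2), so results with PBSL are also given without it. Of 6 chondrocyte markers, SOX9 was at 11.5 to 12.8 untreated and at 8.003 to 9.57 in libraries given IL-1β. ACAN was at 0.454 to 0.554 untreated and at 1.21 to 2.15 in libraries given IL-1β. COL2A1, which encodes type II collagen, did not exceed 0.027, COL9A1 0.013 and COL11A2 0.525. MATN3 was at 0.485 to 1.115 and reached 1 in only 1 library. Among markers of other cells, all 3 of endothelium, all 2 of epithelium and all 3 of B cells were below 1 in every library. The summed level of 5 T and NK cell markers was 7.10 to 8.18 untreated, 8.10 to 8.34 with IL-1β and 5.49 to 6.52 with PBSL and IL-1β, nearly all of it CD3D and CD3E, with CD2, NKG7 and CD5 at or below 0.546. The 5 myeloid markers summed to 4.18 to 4.62, 4.94 to 5.29 and 4.21 to 4.48 in the same order, most of it CSF1R, with PTPRC at or below 0.393. The part of these genes in the results below was not tested. All libraries are of 1 cell line, and in such bulk samples fewer cells with a transcript and less RNA per cell cannot be told apart.

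Of the 42 genes, 21 reached 1 in 3 or more libraries and were tested, and the other 21 were below 1 in every library. The tested genes were 4 of 17 ligands, 6 of 7 death-domain receptors, 3 of 4 decoy or soluble receptors and 8 of 14 TRAF-binding receptors. Below 1 throughout were the ligands TNF, LTA, LTB, FASLG, TNFSF4, TNFSF8, TNFSF10, TNFSF11, TNFSF13, TNFSF14, TNFSF15, TNFSF18 and the TNFSF12-TNFSF13 read-through, and the receptors TNFRSF4, TNFRSF8, TNFRSF10A, TNFRSF10D, TNFRSF13B, TNFRSF13C, TNFRSF17 and TNFRSF18. The highest value among these was 0.865, for TNFSF13 in an IL-1β library. TNFSF13B passed only through libraries given IL-1β, so it had to differ from untreated cells.

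The most abundant member was TNFRSF12A (Fn14), the receptor for the ligand TNFSF12 (TWEAK), at 295 to 365, and 98% of tested genes had a lower mean. TNFRSF1A, the main TNF receptor, followed at 98.1 to 122, and CD70, a ligand best known from activated lymphocytes, at 70.9 to 88.6. LTBR and TNFRSF21 came next, at 57.3 to 66.4 and 44.2 to 65.1, and their ranges overlapped. TNFSF9, FAS, TNFRSF10B, TNFSF12, TNFRSF1B and TNFRSF19 each reached between 16.4 and 25.7 in their highest library. Some tested members had a ligand or receptor that was below 1 in every library. TNFRSF1A was near 100 while TNF stayed at or below 0.716, and FAS was at 9.46 to 19.4 while FASLG stayed at or below 0.05. CD70 was at or above 70.9 while its receptor CD27, which the gene rule does not take in, stayed at or below 0.104. In other pairs both genes were tested, such as TNFRSF12A with TNFSF12 and TNFRSF9 with TNFSF9. The plot shows the level of each tested member in every library.

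**Figure D1:**
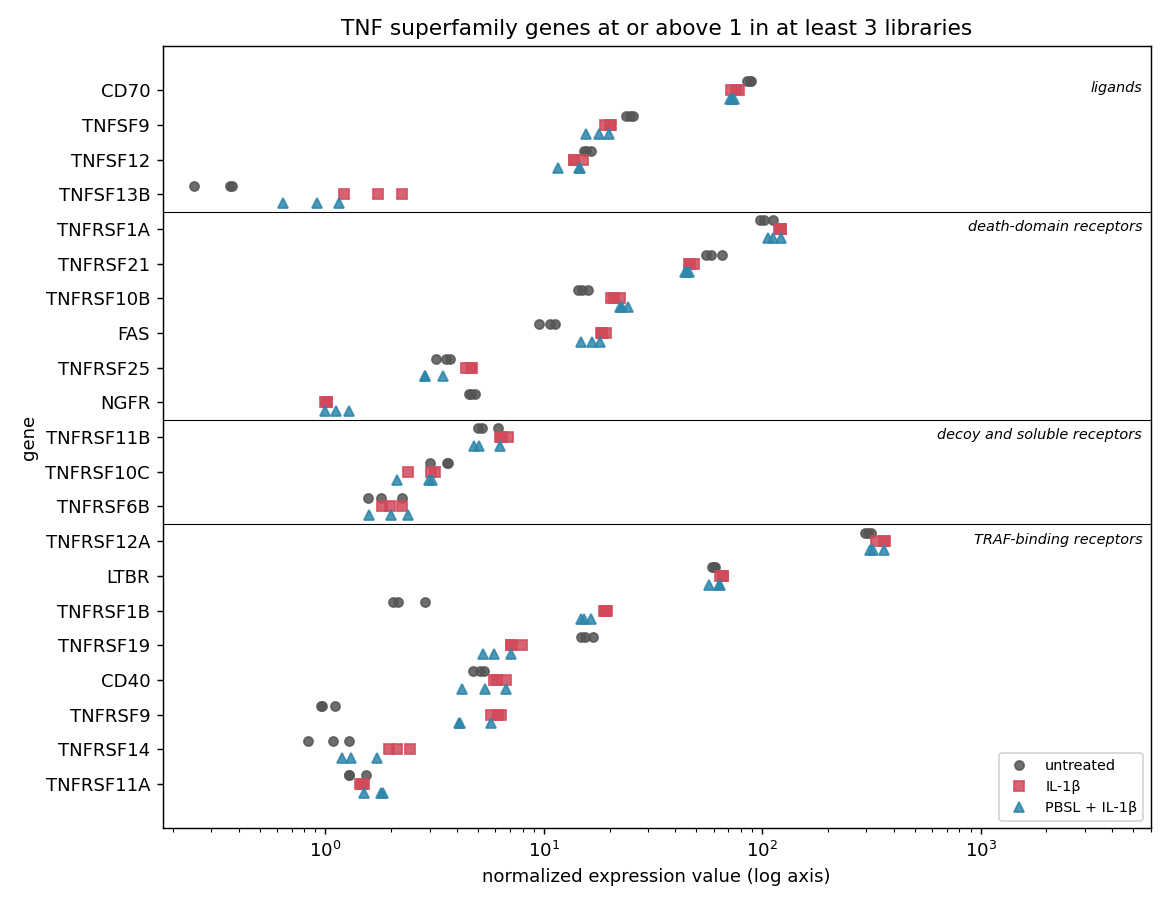
Normalized expression value (log axis) of the 21 tested genes in each of the 9 libraries, by role, with 1 point per library. TNFRSF1B, TNFRSF9, TNFSF13B and FAS lie apart from the untreated points in both IL-1β groups on the high side, and NGFR and TNFRSF19 on the low side.

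The first comparison asked which TNF superfamily genes IL-1β alone changed. In limma's test across all genes, 9 of the 21 tested members rose and 5 fell, or 66.7%, where 32.1% of all 11924 tested genes were called (16.2% higher and 16% lower). The fitted change was at least 2-fold for 4 of the called members (TNFRSF1B, TNFRSF9, TNFSF13B and NGFR), against 2.78% of all tested genes. The largest rises were in receptors: TNFRSF1B (TNF receptor 2), TNFRSF9 (4-1BB), FAS and TNFRSF14, with the ligand TNFSF13B (BAFF) beside them. The largest falls were in NGFR, the low-affinity neurotrophin receptor p75, and TNFRSF19 (TROY). The median log2 fold change of the tested members was 0.21, against -0.0049 for all tested genes. Untreated and IL-1β libraries had separate ranges for 18 of 21 members, where this held for 52.8% of all tested genes. TNFSF13B, which passed the filter only through libraries given IL-1β, is in each of these counts. Among the 17 tested receptors, which leave out all ligands, 8 rose and 3 fell (64.7%). Of these receptors 3 changed by at least 2-fold and 14 had separate ranges. Every log2 fold change here was fitted after adding 1 to each value, which understates each change, most of all for genes near or below 1. Ranks by size and the 2-fold counts hold on that scale only. TNFRSF19, with means of 15.7 untreated and 7.35 with IL-1β, fell just short of 2-fold on it (-0.998).

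**Figure D2:**
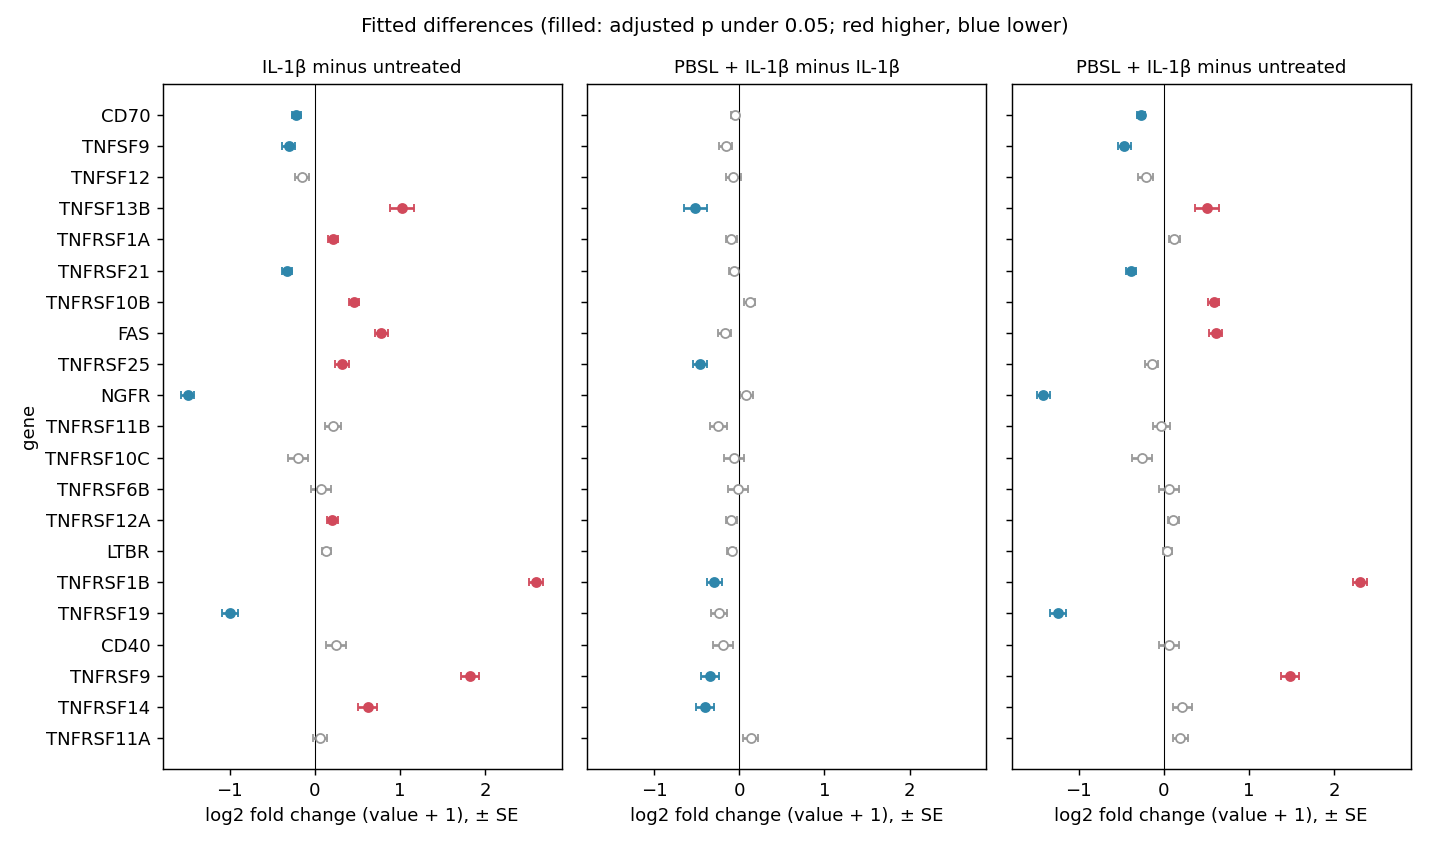
Fitted log2 fold change ± SE of the 21 tested genes in each of the 3 comparisons, with filled points for adjusted p under 0.05 (red higher, blue lower). Differences between the PBSL and IL-1β groups lie between -0.51 and 0.13, while those against untreated libraries reach 2.60 and -1.49.

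Among the ligands, TNFSF13B (hg38 chr13:108251240-108308484), a survival factor for B cells, stood at 0.249, 0.375 and 0.364 in the untreated libraries and at 1.22, 2.24 and 1.74 with IL-1β. Every IL-1β library was above every untreated one, but the IL-1β libraries spread widely among themselves. The log2 fold change was 1.02 (SE 0.139, adjusted p = 0.000146 by limma). TNFSF13B entered the test only through libraries given IL-1β, so this p-value is no evidence of a rise. CD70 fell slightly, from 88.6, 85.6 and 87.7 to 78.0, 75.6 and 71.6 (log2 fold change -0.22, SE 0.0487, adjusted p = 0.00504). TNFSF9 (4-1BB ligand), a costimulatory ligand, fell from 25.7, 23.7 and 24.9 to 20.4, 20.0 and 19.1 (log2 fold change -0.31, SE 0.0764, adjusted p = 0.00925). The groups did not overlap for either gene, while the receptor of TNFSF9, TNFRSF9, moved the other way. TNFSF12 was not called: its values were 15.7, 15.3 and 16.4 untreated and 15.1, 13.7 and 13.8 with IL-1β (log2 fold change -0.15, adjusted p = 0.207).

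All 6 tested death-domain receptors were called, 4 higher and 2 lower, where 32.1% of all tested genes were called. FAS (hg38 chr10:88990582-89015785), which triggers apoptosis when FASLG binds it, stood at 9.46, 10.7 and 11.2 untreated and at 19.4, 18.3 and 18.4 with IL-1β (log2 fold change 0.78, SE 0.0794, adjusted p = 1.39e-05). The 2 sets of libraries lay far apart. FAS overlaps ACTA2, an actin gene on the opposite strand, which ran from 137 to 144 untreated and from 58.7 to 60.3 with IL-1β. The library kit keeps strand, but whether the counting used it is not stated. TNFRSF10B, a receptor for the death ligand TNFSF10 (TRAIL), rose from 14.3, 15.9 and 15.0 to 20.9, 22.3 and 20.3 (log2 fold change 0.46, SE 0.0625, adjusted p = 0.000144). TNFRSF25 (DR3) rose from 3.19, 3.55 and 3.70 to 4.41, 4.67 and 4.64 (log2 fold change 0.32, SE 0.0801, adjusted p = 0.00976). No IL-1β library fell to the untreated range for either gene. TNFRSF25 overlaps PLEKHG5 on the same strand, which ran from 7.68 to 9.64 untreated and from 8.0 to 8.66 with IL-1β.

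TNFRSF1A was at 98.1, 102 and 112 in the untreated libraries and at 121, 119 and 122 with IL-1β (log2 fold change 0.22, SE 0.0626, adjusted p = 0.0198). Its call was lost without untreated 1 (adjusted p = 0.0888), untreated 2 (0.0646), IL-1β 1 (0.0626), IL-1β 2 (0.0513) or IL-1β 3 (0.0659). NGFR (hg38 chr17:49495293-49515017) had the largest fitted fall of any tested member, from 4.66, 4.53 and 4.84 to 1.02, 1.02 and 0.999 (log2 fold change -1.49, SE 0.0769, adjusted p = 4.29e-08). The IL-1β libraries were almost identical and well below every untreated one. TNFRSF21 (DR6), a death-domain receptor studied in neurons and lymphocytes, fell from 58.2, 55.1 and 65.1 to 48.7, 46.1 and 46.7 (log2 fold change -0.33, SE 0.062, adjusted p = 0.0017).

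**Figure D3:**
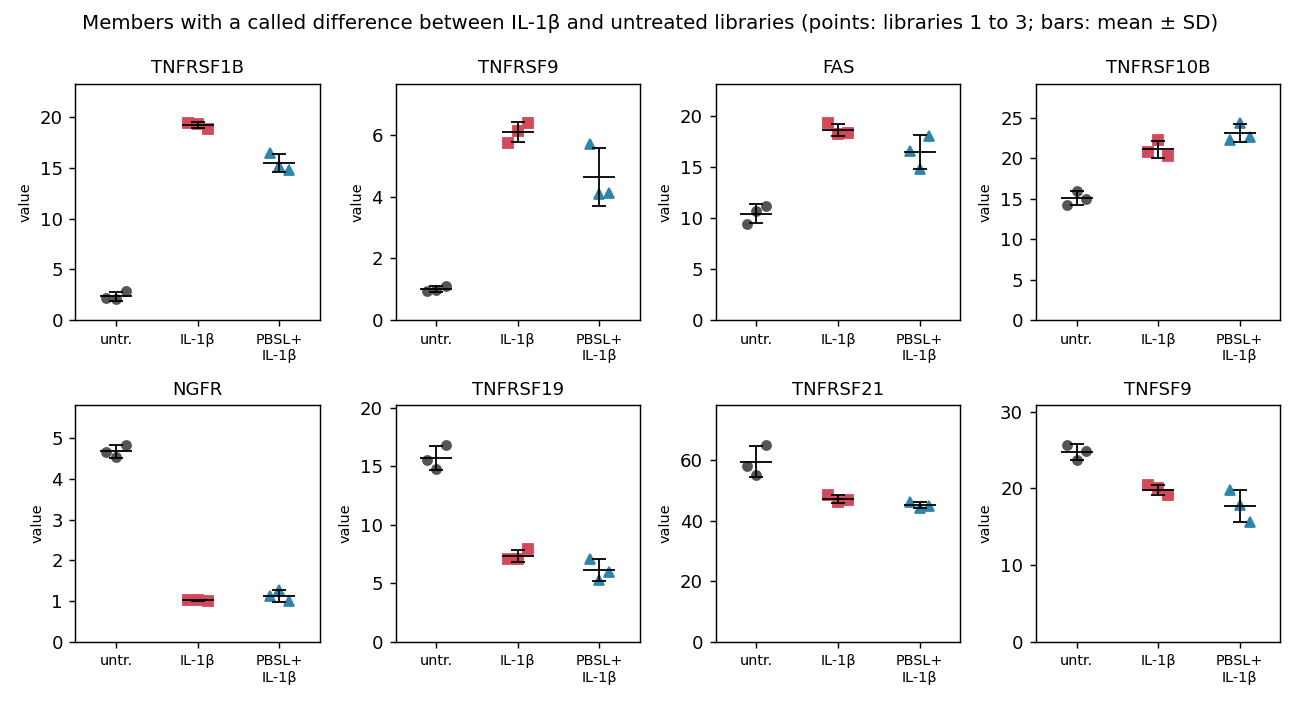
Normalized expression value in each library, with mean ± SD over 3 libraries, for 8 of the 14 members called between IL-1β and untreated libraries. TNFRSF1B rose from 2.35 to 19.2 and NGFR fell from 4.68 to 1.01 on average, and the PBSL libraries stayed far from the untreated level of both.

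None of the 3 decoy and soluble receptors tested was called by limma. TNFRSF11B was at 5.22, 5.02 and 6.19 untreated and at 6.83, 6.42 and 6.27 with IL-1β (log2 fold change 0.22, adjusted p = 0.11). Its groups did not overlap, and with only these 2 groups fitted it was called (adjusted p = 0.0457). In that fit 41.4% of all tested genes were called, against 32.1% with all libraries. TNFRSF10C, a TRAIL receptor without a death domain, was at 3.60, 3.00 and 3.64 and at 2.39, 3.18 and 3.04 (log2 fold change -0.19, adjusted p = 0.241), and its groups overlapped. It shares a strand with the overlapping gene AC107959.5 and resembles other TRAIL receptors, so its reads may have been split. TNFRSF6B, which binds FASLG and TNFSF14 as a soluble decoy, was at 1.56, 2.23 and 1.79 and at 1.97, 1.81 and 2.24 (log2 fold change 0.08, adjusted p = 0.656), and it lies inside a read-through transcript annotated on its strand. At an unadjusted p under 0.05 the count over all tested members was 11 higher and 5 lower. The share of all tested genes at that threshold is not given here, so nothing is read from it.

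Of the 8 TRAF-binding receptors tested, 4 rose and 1 fell, where 16.2% of all tested genes were higher and 16% lower. TNFRSF1B (hg38 chr1:12167003-12209228, GENCODE 29), which binds TNF and signals through TRAF2, had the largest fitted rise of any tested member. It stood at 2.16, 2.05 and 2.86 in the untreated libraries and at 19.4, 19.3 and 18.9 with IL-1β (log2 fold change 2.60, SE 0.0858, adjusted p = 5.95e-10). The lowest IL-1β library was many times above the highest untreated one. TNFRSF9 (chr1:7915894-7943165), a costimulatory receptor of lymphocytes, went from 0.953, 0.959 and 1.10 to 5.75, 6.15 and 6.39 (log2 fold change 1.82, SE 0.105, adjusted p = 1.05e-07). TNFRSF14 (HVEM, chr1:2555639-2565382), the receptor for TNFSF14 (LIGHT), went from 1.09, 0.833 and 1.28 to 2.44, 2.13 and 1.95 (log2 fold change 0.62, SE 0.111, adjusted p = 0.00111). Neither gene's groups overlapped.

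TNFRSF12A rose from 316, 295 and 307 to 365, 363 and 331, a small change for the most abundant member (log2 fold change 0.21, SE 0.0649, adjusted p = 0.0303). The TNFRSF12A call was lost without untreated 2 (adjusted p = 0.0976), untreated 3 (0.0718), IL-1β 1 (0.116) or IL-1β 2 (0.109), with no filter (0.0556) and with no variance trend (0.0506). TNFRSF19, an orphan receptor linked to Wnt signalling, fell from 15.5, 14.7 and 16.8 to 7.08, 7.04 and 7.95 (log2 fold change -0.998, SE 0.0931, adjusted p = 6.89e-06), with every IL-1β library far below the untreated ones. LTBR, the lymphotoxin β receptor, was at 58.7, 59.9 and 60.8 untreated and at 64.4, 66.1 and 66.4 with IL-1β (log2 fold change 0.13, adjusted p = 0.0794). CD40, which binds CD40LG, was at 5.12, 4.76 and 5.34 and at 6.68, 6.13 and 5.92 (log2 fold change 0.25, adjusted p = 0.123). For LTBR and CD40 the groups did not overlap, yet neither passed the test. Both did when only these 2 groups were fitted, with adjusted p = 0.0137 for LTBR and 0.0127 for CD40. That fit called more of all tested genes too, 41.4%. TNFRSF11A (RANK), the receptor of TNFSF11, was at 1.53, 1.28 and 1.28 and at 1.47, 1.501 and 1.43 (log2 fold change 0.06, adjusted p = 0.595), and its groups overlapped.

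IL-1β acts in large part through NF-κB and AP-1, so the 250 bases before each start site in RefSeq (GRCh38.p14) were searched on both strands for the κB decamer consensus and the AP-1 site TGANTCA. The table matched 27 of the 42 genes with 36 start sites. Of these, 30.6% held the κB match and 13.9% the AP-1 match, against 9.96% and 6.57% of all 35116 start sites in the table. The windows of LTB overlap almost fully, as do those of TNFSF14, so a match can count at more than 1 start site. By gene, 9 of the 27 held a κB match and 4 an AP-1 match. All 250 bases of the TNFRSF14 window lie in annotated exons. With IL-1β, 10 of the 13 tested genes that matched were called: all 4 with a κB match (FAS, TNFRSF9, TNFRSF14 and, lower, TNFRSF19) and 6 of 9 without one (TNFRSF1A, TNFRSF1B, TNFRSF25, TNFSF13B and, lower, TNFRSF21 and TNFSF9). Nothing particular to the genes with a match is read from these counts. TNFRSF9 held both matches before 1 start site, where they do not overlap, and FAS held them before different start sites. The matched stretches of 30 bases are printed 5′ to 3′ on the gene's strand with the match, or overlapping matches, in capitals, for these called genes and for the low ligands LTB and TNFSF14.
TNFRSF9 κB, chr1:7940893-7940922, minus strand: agctgtggtGGGAATTTCCCatgagacccc
TNFRSF9 AP-1, chr1:7940865-7940894, minus strand: ccgcccctggcTGAGTCAccgcactcctgt
FAS κB, chr10:88991264-88991293, plus strand: ggtcgctggaGGGGGACCCCggttggagag
FAS AP-1, chr10:88990548-88990577, plus strand: caagttgcTGAATCAatggagccctcccca
TNFRSF14 κB, chr1:2556276-2556305, plus strand: atggactttGGGGGGCTCCCCcttctacag
TNFRSF19 κB, chr13:23579179-23579208, plus strand: gccgcggagtGGGGGCCTCCaaagaaccca
LTB κB, chr6:31582492-31582521, minus strand: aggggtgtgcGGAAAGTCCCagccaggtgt
TNFSF14 κB, chr19:6670332-6670361, minus strand: gggaaagctGGGGGCTCCCCactgcacttg
TNFSF14 AP-1, chr19:6670308-6670337, minus strand: cacttgccaccTGAGTCAcattttcagaag

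TNFRSF1B, the tested member with the largest fitted rise, held neither match in its window. The first 200 bases of that window, chr1:12166741-12166940 on the plus strand, are shown because the gene had the largest fitted change.
TNFRSF1B: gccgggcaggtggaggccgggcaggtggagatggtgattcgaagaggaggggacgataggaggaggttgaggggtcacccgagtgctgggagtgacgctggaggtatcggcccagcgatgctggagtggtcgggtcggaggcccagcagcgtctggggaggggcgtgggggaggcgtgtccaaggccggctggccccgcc

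A letter match describes the sequence and not binding, and a window without one says nothing of the factors at that gene.

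The 21 members below 1 in every library included TNF itself. It was at 0.052, 0 and 0 in the untreated libraries, at 0.478, 0.716 and 0.613 with IL-1β and at 0.415, 0.612 and 0.496 with PBSL and IL-1β. Every library given IL-1β was above every untreated one. TNFSF14 showed the same order, with 0.047, 0 and 0.036 untreated, 0.333, 0.55 and 0.298 with IL-1β and 0.416, 0.448 and 0.496 with PBSL and IL-1β. LTB, which forms the membrane-bound lymphotoxin trimer with LTA, was at 0, 0 and 0.088, at 0.384, 0.533 and 0.282, and at 0.475, 0.087 and 0.343. The second PBSL library lay within the untreated range of LTB. TNFSF18 (GITR ligand) reached 0.363, TNFRSF8 (CD30) 0.328, TNFSF15 (TL1A) 0.271 and LTA 0.158 in their highest library. These genes were outside the test. In the alternative fit with no filter, where 22.8% of all genes were called between IL-1β and untreated libraries, 6 of the 21 were higher with IL-1β: TNF (adjusted p = 0.000138), TNFSF14 (0.00119), LTB (0.0181), TNFSF18 (0.0214), LTA (0.0334) and TNFRSF8 (0.0483). Between the PBSL and IL-1β groups that fit called 0 of the 21 by limma, where 11.5% of all genes were called. At an unadjusted p under 0.05, 1 was higher and 2 lower, with no share of all genes given here, so nothing is read from it.

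**Figure D4:**
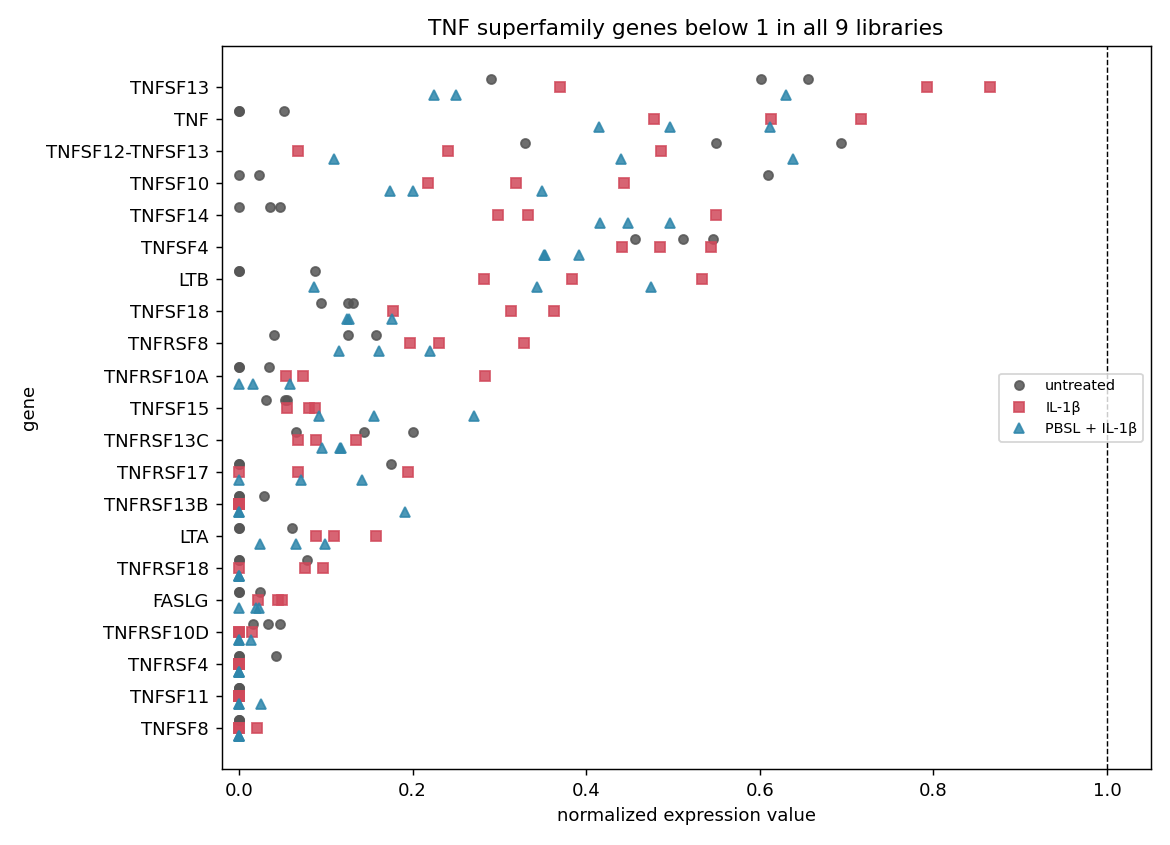
Normalized expression value of the 21 genes below 1 in all 9 libraries, with 1 point per library and the value 1 as a dashed line. TNF and TNFSF14 stay at or below 0.052 in untreated libraries and lie between 0.298 and 0.716 in all libraries given IL-1β.

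Other low members had values scattered over the groups. TNFSF10 was at 0.61 in untreated 1 but at 0 and 0.023 in the other untreated libraries, and TNFRSF10A was at 0.283 in IL-1β 1 and at or below 0.074 elsewhere. TNFSF4 (OX40 ligand) was at 0.456 to 0.546 untreated, at 0.441 to 0.544 with IL-1β and at 0.352 to 0.392 with PBSL and IL-1β. In the fit with no filter it was lower with PBSL and IL-1β than in untreated libraries (adjusted p = 0.0265), while TNF, TNFSF14, LTB and TNFSF15 were higher, where 29.3% of all genes were called. TNFSF13, TNFSF12 and their read-through transcript overlap on chromosome 17, so their reads may be divided between them: TNFSF13 was at 0.225 to 0.865 and the read-through at 0.068 to 0.694, both with overlapping groups. TNFSF8, TNFSF11 and TNFRSF4 were listed at 0 in all but 1 library each. FASLG, TNFRSF10D, TNFRSF13B, TNFRSF13C, TNFRSF17 and TNFRSF18 did not exceed 0.201 in any library.

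The second comparison set PBSL with IL-1β against IL-1β alone. By limma, 5 of the 21 tested members fell (TNFRSF25, TNFSF13B, TNFRSF14, TNFRSF1B and TNFRSF9) and 0 rose, or 23.8%, against 22.5% of all tested genes, so the share was near the background. Split by direction, 11% of all tested genes were lower and 11.5% higher. At an unadjusted p under 0.05, 7 members were lower and 0 higher. The share of all tested genes at that threshold is not given here, so nothing is read from this count. No member differed by 2-fold, where 0.151% of all tested genes were called and did. The fitted difference was below 0 for 18 of 21 members, and the share of all tested genes below 0 is not given here. Its median was -0.093 over the tested members, against 0.0079 for all tested genes. All 5 genes had been higher with IL-1β than in untreated libraries, but both comparisons use the IL-1β libraries, so a high IL-1β value moves them in opposite directions. Libraries did not overlap for 7 members, where this held for 41.8% of all tested genes. Without PBSL 1, 9 members were lower and 0 higher (32.9% of all genes called), with CD40, TNFRSF11B, TNFRSF19 and TNFSF9 added. The count fell to 2 without IL-1β 1, 1 without IL-1β 2, 2 without IL-1β 3, 1 without PBSL 2 and 2 without PBSL 3, and the share of all tested genes called fell with it, to 12.2%, 11%, 11.4%, 12.1% and 15.6% in the same order.

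TNFRSF25 was the only member whose call stayed in every alternative in which it was tested, since it is below the stricter filter. It stood at 4.41, 4.67 and 4.64 with IL-1β and at 3.46, 2.87 and 2.86 with PBSL and IL-1β (log2 fold change -0.46, SE 0.0801, adjusted p = 0.00415). All PBSL libraries lay below the IL-1β ones and reached into or under the untreated range. The overlapping gene PLEKHG5 ran from 8.0 to 8.66 with IL-1β and from 6.22 to 7.54 with PBSL. TNFSF13B went from 1.22, 2.24 and 1.74 to 0.914, 0.637 and 1.151 (log2 fold change -0.51, SE 0.139, adjusted p = 0.0225). The highest PBSL and the lowest IL-1β library nearly touched. TNFSF13B had entered the test only through libraries given IL-1β, with every library of the IL-1β group among them. The TNFSF13B call did not hold without IL-1β 2 (adjusted p = 0.0934), IL-1β 3 (0.0678) or PBSL 2 (0.089).

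TNFRSF14 went from 2.44, 2.13 and 1.95 to 1.72, 1.31 and 1.19 (log2 fold change -0.40, SE 0.111, adjusted p = 0.0244), and the last of these lay within the untreated range. The TNFRSF14 call did not hold without IL-1β 1 (adjusted p = 0.0954), IL-1β 2 (0.068), PBSL 2 (0.0789) or PBSL 3 (0.0846). TNFRSF1B went from 19.4, 19.3 and 18.9 to 16.5, 15.2 and 14.8 (log2 fold change -0.29, SE 0.0858, adjusted p = 0.0301). All PBSL libraries remained far above the untreated ones. For TNFRSF1B the adjusted p was 0.0899 without IL-1β 1, 0.0897 without IL-1β 2, 0.0749 without IL-1β 3, 0.0846 without PBSL 2, 0.0882 without PBSL 3, 0.0563 with a pseudocount of 0.1 and 0.0655 with no filter. TNFRSF9 went from 5.75, 6.15 and 6.39 to 5.73, 4.08 and 4.12 (log2 fold change -0.34, SE 0.105, adjusted p = 0.0364), with PBSL 1 almost level with the lowest IL-1β library. That of TNFRSF9 did not hold without IL-1β 1 (adjusted p = 0.0658), IL-1β 2 (0.101), IL-1β 3 (0.116), PBSL 2 (0.13) or PBSL 3 (0.117), with no filter (0.0806) and when only these 2 groups were fitted (0.0613). Without PBSL 1 its adjusted p was 0.00116.

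**Figure D5:**
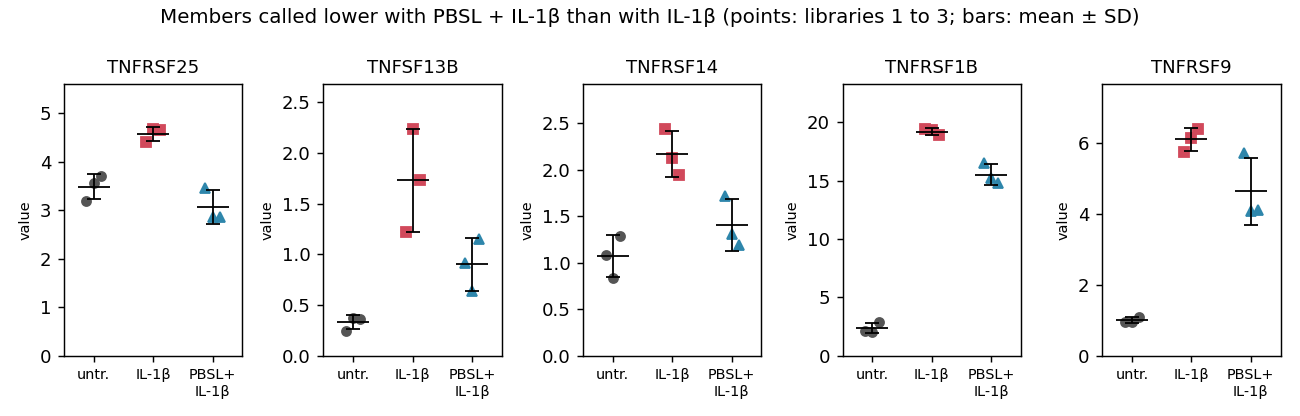
Normalized expression value in each library, with mean ± SD over 3 libraries, for the 5 members called lower with PBSL and IL-1β than with IL-1β alone. TNFRSF25 falls to 3.06 on average, below its untreated mean of 3.48, while TNFRSF1B falls only from 19.2 to 15.5 and stays above its untreated mean of 2.35.

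The remaining members were not called between the PBSL and IL-1β groups. FAS was at 16.6, 14.8 and 18.1 with PBSL and IL-1β (log2 fold change -0.17, adjusted p = 0.141), and ACTA2 on the other strand ran from 26.6 to 38.7. TNFRSF10B was at 22.2, 24.4 and 22.7 (log2 fold change 0.12, adjusted p = 0.176). NGFR was at 1.12, 1.28 and 0.991 (log2 fold change 0.08, adjusted p = 0.485), so it stayed near its IL-1β level in all PBSL libraries. TNFRSF19 was at 7.10, 5.26 and 5.94 (log2 fold change -0.24, adjusted p = 0.083, and 0.00904 without PBSL 1). CD40 was at 6.72, 4.21 and 5.37 (log2 fold change -0.19, adjusted p = 0.271, and 0.0215 without PBSL 1). PBSL 1 sat inside the IL-1β range of TNFRSF19 and just above that of CD40, and the other PBSL libraries lay below. TNFRSF11B was at 6.27, 4.78 and 5.04 (log2 fold change -0.24, adjusted p = 0.0886, and 0.0115 without PBSL 1). TNFSF9 was at 19.8, 17.8 and 15.6 (log2 fold change -0.16, adjusted p = 0.159, and 0.0212 without PBSL 1). For these genes too PBSL 1 was the highest of the PBSL libraries. The abundant TNFRSF12A was at 322, 363 and 310 (adjusted p = 0.326), TNFRSF1A at 122, 112 and 107 (adjusted p = 0.306) and CD70 at 74.1, 72.6 and 70.9 (adjusted p = 0.51).

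The rest of the uncalled members were LTBR at 64.3, 63.3 and 57.3 (adjusted p = 0.241), TNFRSF21 at 46.3, 44.2 and 45.0 (adjusted p = 0.52) and TNFSF12 at 14.6, 14.5 and 11.6 (adjusted p = 0.592). TNFRSF10C was at 2.97, 3.08 and 2.13 (adjusted p = 0.758), TNFRSF11A at 1.501, 1.84 and 1.79 (adjusted p = 0.273) and TNFRSF6B at 2.40, 2.00 and 1.58 (adjusted p = 0.953). All but LTBR overlapped the IL-1β libraries.

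The third comparison set the PBSL and IL-1β group against untreated cells, with the same untreated libraries as the first. Here 5 members were higher (TNFRSF1B, TNFRSF9, FAS, TNFRSF10B and TNFSF13B) and 5 lower (NGFR, TNFRSF19, TNFRSF21, TNFSF9 and CD70), or 47.6%, against 41.6% of all tested genes (22.3% higher and 19.3% lower). Ranges were separate for 11 of 21 members, against 48.2% of all tested genes, and 4 called members differed by at least 2-fold, against 2.83%. The median over tested members was 0.064, against 0.031 for all tested genes. TNFRSF1B differed by a log2 fold change of 2.31 (adjusted p = 2.2e-09), TNFRSF9 by 1.48 (adjusted p = 6.74e-07), FAS by 0.61 (adjusted p = 9.47e-05) and TNFRSF10B by 0.58 (adjusted p = 1.99e-05). NGFR differed by -1.41 (adjusted p = 7.31e-08), TNFRSF19 by -1.24 (adjusted p = 1.13e-06), TNFSF9 by -0.46 (adjusted p = 0.000537), TNFRSF21 by -0.39 (adjusted p = 0.000447) and CD70 by -0.26 (adjusted p = 0.00116). For each of these 9 genes the groups were separate. TNFSF13B differed by 0.51 (adjusted p = 0.0122), and its call was lost without PBSL 3 (adjusted p = 0.0526). It had entered the test only through libraries given IL-1β. TNFRSF14 and TNFRSF25 were not called here (log2 fold changes 0.22 and -0.14, adjusted p = 0.136 and 0.173), and nor were TNFRSF1A (0.12, adjusted p = 0.136) and TNFRSF12A (0.11, adjusted p = 0.186). Without PBSL 1, 6 members were higher and 7 lower, where 45.4% of all tested genes were called.

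Of 53 genes that carry or modify the signal of these receptors and are no members themselves, 51 were tested. With IL-1β 30 rose and 1 fell, or 60.8%, against 32.1% of all tested genes. The list was chosen with earlier results of these data known, so this share is only a description. The largest rise was in BIRC3 (cIAP2), a ubiquitin ligase that binds TRAF2, from 0.522, 0.393 and 0.305 to 14.3, 14.9 and 14.9 (log2 fold change 3.48, SE 0.0781, adjusted p = 2.04e-11). TNFAIP3 (A20), a ubiquitin-editing brake on TNF receptor signalling, rose from 1.92, 2.80 and 1.56 to 21.9, 24.0 and 28.7 (log2 fold change 3.08, SE 0.133, adjusted p = 8.15e-09). Every IL-1β library was far above the untreated ones for both. RELB and NFKB2, the subunits of the non-canonical NF-κB pathway, rose from means of 2.08 ± 0.166 to 17.98 ± 0.387 and from 12.45 ± 1.30 to 48.0 ± 1.42 (SD, 3 libraries; log2 fold changes 2.62 and 1.87, adjusted p = 1.22e-10 and 5.66e-09). TRAF1 rose from 0.583 ± 0.0912 to 6.94 ± 0.41, and TNIP1, a partner of A20, from 16.4 ± 0.499 to 56.6 ± 2.26 (log2 fold changes 2.33 and 1.73, adjusted p = 8.06e-10 and 2.36e-10). BIRC3 and TRAF1 passed the filter only through libraries given IL-1β, so their p-values are no evidence of a rise. Both are in the count of 30. The gene that fell was MAP3K14 (NIK), the kinase at the head of the non-canonical pathway, from 9.65, 10.4 and 9.66 to 4.01, 4.18 and 3.74 (log2 fold change -1.13, SE 0.0714, adjusted p = 2.34e-07).

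The adaptors and caspases close to the death domains changed less. CFLAR (c-FLIP), which inhibits caspase 8, rose from 6.90 ± 0.149 to 13.0 ± 0.948 (log2 fold change 0.83, adjusted p = 4.91e-06), and CASP8 from 6.26 ± 0.645 to 7.54 ± 0.672 (log2 fold change 0.24, adjusted p = 0.0466). FADD had a log2 fold change of 0.18 (adjusted p = 0.0452) and RIPK1 one of 0.17 (adjusted p = 0.0348). The FADD call was lost without any 1 of the 6 libraries (adjusted p from 0.0604 to 0.128), and so was that of RIPK1 (from 0.0643 to 0.148). For CASP8 it was lost without untreated 1 (adjusted p = 0.0748), untreated 3 (0.177), IL-1β 1 (0.174) or IL-1β 3 (0.135). TRADD and TRAF2 were not called, at adjusted p = 0.0625 and 0.155. ADAM17, the protease that sheds TNF and its receptors, rose from 16.3 ± 0.758 to 21.5 ± 0.191 (log2 fold change 0.37, adjusted p = 0.000699).

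Between the PBSL and IL-1β groups 8 of these 51 genes fell and 1 rose, or 17.6%, against 22.5% of all tested genes (11% lower and 11.5% higher), so the share was below the background. TIMP3, an inhibitor of ADAM17, fell from 175, 177 and 174 to 146, 115 and 122 (log2 fold change -0.46, SE 0.0758, adjusted p = 0.00387). BIRC3 fell to 10.9, 10.5 and 12.2 (log2 fold change -0.36, adjusted p = 0.00885) and CFLAR to 10.9, 9.20 and 10.3 (log2 fold change -0.33, adjusted p = 0.0101), both still above every untreated library. RBCK1 (HOIL-1), a subunit of the linear ubiquitin ligase, went from 76.3 ± 0.908 to 61.5 ± 8.70 (adjusted p = 0.0204), and this call did not hold without IL-1β 1 (adjusted p = 0.0624), IL-1β 2 (0.068) or IL-1β 3 (0.0558). TRADD went from 19.9 ± 1.03 to 16.3 ± 2.08 (adjusted p = 0.0396). That of TRADD did not hold without IL-1β 1 (adjusted p = 0.0591), IL-1β 2 (0.13), IL-1β 3 (0.111), PBSL 2 (0.126) or PBSL 3 (0.121). With 1 library left out, the lowest limma adjusted p was 0.00278 for TRADD and 0.00215 for RBCK1. TRAF2, the adaptor that TNFRSF1B binds, was the gene that rose, from 10.6, 10.1 and 10.1 to 12.7, 15.8 and 12.4 (log2 fold change 0.37, SE 0.0834, adjusted p = 0.0112), with every PBSL library above the other groups. TNFAIP3, RELB and NFKB2 were not called (adjusted p = 0.306, 0.426 and 0.494). The count of 9 called genes was 4 without IL-1β 1, 6 without IL-1β 2 and 5 without IL-1β 3, where 12.2%, 11% and 11.4% of all tested genes were called. It was 5 without PBSL 2 and 9 without PBSL 3 (12.1% and 15.6% of all tested genes). Without PBSL 1 it was 13, with 11 lower and 2 higher, where 32.9% of all tested genes were called.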

How the data were processed

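RNA-seq of SW1353 cells was available for 9 libraries, made with a directional MGI kit per the labels' protocols. Trim Galore, STAR, HTSeq and hg38 are named, per the submitters' processing notes, without versions. The deposited values are a normalized expression signal whose unit the authors do not name, 1 column per library, and how multi-mapped or overlapping reads were counted is not given in the sources used here. They are not counts, so no count model was run.

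Genes entered the test if 3 or more libraries held a value of 1 or higher (11924 of 19389). log2(value + 1) was fitted with limma 3.58.1 (R 4.3.3) with a variance trend, a mean for each of the 3 groups, which leaves 6 residual degrees of freedom; 2-sided p-values were Benjamini-Hochberg adjusted over all tested genes and called under 0.05. The protein comparison that was planned was not made. The procedure was tested on simulated data. An exact permutation of 3 against 3 libraries cannot go below p = 0.1.

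The members and lists were chosen with earlier results of these data known. All tested members are named, and of the other 53 genes those with the smallest p (6 per direction for IL-1β, 4 for PBSL) and 12 fixed ones. Overlapping genes come from GENCODE 29. Tables and figures used Python 3.11.15. Alternatives covered pseudocount, filter, scaling, trend, groups fitted, replicate block and each library left out.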

Additional observations from a re-analysis of the deposited data

How the results depend on the processing

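For IL-1β against untreated cells, 14 of 21 tested members were called, where 32.1% of all tested genes were. The lowest count was 10 of 14 tested members with the filter of at least 5 (33.8% of all tested genes called). TNFRSF1B and TNFRSF9 passed that filter only through libraries given IL-1β, so their place in this count is no evidence. The highest count was 19 of 42 with no filter (22.8%). Leaving out 1 library gave 12 to 13, where 24.7% to 28.3% of all tested genes were called. For PBSL and IL-1β against IL-1β the count was 5 of 21, where 22.5% of all tested genes were called. It was 3 of 42 with no filter (11.5%) and 3 with the replicate block (17.9%). With the filter of at least 5 it was 2 of 14, where 27.4% of all tested genes were called. TNFRSF1B and TNFRSF9 kept their calls there, and TNFRSF25, TNFSF13B and TNFRSF14 were not tested. TNFRSF9 passed that filter only through the IL-1β libraries and PBSL 1, so its lower call there is no support. With 1 library left out the count was 1 to 9, where 11% to 32.9% of all tested genes were called. For PBSL and IL-1β against untreated cells the count was 10 of 21, where 41.6% of all tested genes were called. It ran from 8 of 14 with the filter of at least 5 (44.1%) to 15 of 42 with no filter (29.3%). TNFRSF1B and TNFRSF9, which passed that stricter filter only through libraries given IL-1β, are again among the called members. With 1 library left out the count was 9 to 13, where 32.4% to 45.4% of all tested genes were called. The labels share replicate numbers but nothing ties them to a culture or day: same-numbered libraries correlated at -0.225 to 0.068 over 9 pairs, after group means were removed, and different numbers at -0.111 to 0.196, so not every library correlated best with its own number. With the replicate block TNFRSF1B (adjusted p = 0.0501) and TNFRSF9 (0.057) were no longer called between PBSL and IL-1β. The counts for the other comparisons stayed at 14 and 10, where 29.2% and 38% of all tested genes were called.

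Of the 51 tested signalling and sheddase genes, 9 were called between PBSL and IL-1β (22.5% of all tested genes). With no filter 4 of 53 were called (11.5%), and with only the 2 groups fitted 5 were (17.9%). With 1 library left out the count was 4 to 13, where 11% to 32.9% of all tested genes were called. These alternatives were applied to the list after the data were seen. Log2 fold changes that changed sign did so only when 1 library was left out, and none of them was called in the fit to all libraries or in the fit where the sign changed. Against untreated cells, the PBSL and IL-1β group then ran from -0.0752 to 0.209 for CD40, -0.127 to 0.0504 for TNFRSF11B, -0.0323 to 0.166 for TNFRSF6B, -0.0552 to 0.146 for RBCK1, -0.0213 to 0.234 for EDA and -0.144 to 0.0114 for TRADD. Against IL-1β it ran from -0.152 to 0.0626 for TNFRSF10C, -0.109 to 0.0896 for TNFRSF6B, -0.121 to 0.0348 for TNFSF12, -0.133 to 0.123 for EDA and -0.0162 to 0.0401 for TNIP1. IL-1β against untreated cells ran from -0.00071 to 0.168 for TNFRSF6B. Median-ratio rescaling left the 3 member counts at 14, 5 and 10, where 32.1%, 22.7% and 41.5% of all tested genes were called. The number of reads behind a value is unknown, so no counting error can be given for the 21 low members.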

Other observations

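Some members of the family carry other symbols and lie outside the gene rule. Of 6 such genes, RELT, EDA2R and EDA were tested, and CD27, CD40LG and EDAR were at or below 0.104 in every library. RELT, a receptor that resembles TNFRSF19, was at 2.47, 2.67 and 2.23 untreated, at 3.07, 3.19 and 3.44 with IL-1β and at 3.64, 3.59 and 3.21 with PBSL and IL-1β. It was higher in all libraries given IL-1β (log2 fold change 0.29, adjusted p = 0.0132, against untreated cells), but the call was lost without untreated 3 (adjusted p = 0.0573) or IL-1β 3 (0.0625). EDA2R, the receptor of an ectodysplasin isoform, ran from 3.91 to 4.80 and EDA from 0.975 to 1.82, and neither was called in any of the 3 comparisons by limma with all libraries. Without PBSL 3, EDA2R was lower with PBSL and IL-1β than in untreated libraries (adjusted p = 0.0462).

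Neighbouring members differed widely in level. On chromosome 19, CD70 (70.9 to 88.6 over all libraries) lies 47.3 kb from TNFSF9 (15.6 to 25.7) and 57.1 kb from TNFSF14 (0 to 0.55). On chromosome 1, TNFRSF1B (2.05 to 19.4) lies 22.8 kb from TNFRSF8 (0.04 to 0.328). On chromosome 8, TNFRSF10B (14.3 to 24.4) lies 33.4 kb from TNFRSF10C (2.13 to 3.64), while TNFRSF10A and TNFRSF10D in the same group of genes stayed at or below 0.283 and 0.047. On chromosome 12, TNFRSF1A (98.1 to 122) and LTBR (57.3 to 66.4) lie 32.9 kb apart and were both high in every library. On chromosome 6, TNF, LTA and LTB lie within 6.2 kb of each other and were all below 1. Distances are gaps between gene bodies in GENCODE 29 (hg38).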
